A study of Mus musculus with 10 samples.

Results

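IGHD1-1 (DFL16.1) and IGHD4-1 (DQ52) are D gene segments of the mouse immunoglobulin heavy chain (Igh) locus, and their use was followed in the rearranged Igh genes of peritoneal cavity B-1a cells. The members are the clonotypes whose D gene is listed as exactly IGHD1-1 or IGHD4-1. A clonotype is 1 table row, a V, D and J gene combination with its CDR3 amino acid sequence, and it carries a count of reads. Of 183540 clonotypes with a single D gene in 4 libraries, 58245 carried IGHD1-1 and 19380 carried IGHD4-1, and the other 105915 were spread over the remaining D genes of the 23 listed. The libraries came from sorted B-1a cells of 6 to 8 week old mice on the C57BL/6 background, 2 from wild-type (WT) mice and 2 from Igll1-/- mice. Igll1 encodes a component of the surrogate light chain (SLC), which pairs with the heavy chain in the pre-B cell receptor, and the disrupted gene was carried in the germline. Genomic DNA was amplified from primers placed in VH framework 3 and in JH, and products of 120 to 280 bp were kept. The replicates are described as independent experiments, but the number of mice behind each is not given, so p-values measure only the spread between these libraries.

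In heavy chain assembly a D segment first joins a J segment, and a V segment then joins the DJ product. IGHD1-1 lies near the V-proximal end of the D cluster and IGHD4-1 is the D segment nearest to J. DQ52 joints are known to be frequent in early and fetal lymphoid progenitors, and DFL16.1 is among the D segments used most in mice. A D segment can be read in 3 frames, and the frame sets which residues it gives to CDR3, the loop at the centre of the antigen binding site. In the RefSeq annotation of assembly GRCm38.p6, Ighd4-1 is 11 bp long and first of 20 D segments counted from J, and Ighd1-1 is 23 bp long and the 18th, with 16 segments between them. Next to Ighd4-1 lies Ighj1, followed by Ighj2, Ighj3 and Ighj4. Of the 23 D genes listed in the libraries, 11 have a namesake in that annotation, and both members are among them.

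The libraries held 32386 to 58205 clonotypes from 180593 to 285517 reads. Between 68.0% and 73.4% of the clonotypes rested on 1 read, and 5.62% to 6.71% had no D gene. IGHV12-3 and IGHV11-2, V genes of the phosphatidylcholine-binding receptors that B-1a cells are known for, were taken as the check of the cell label. IGHV12-3 made up 4.32% to 5.09% of the clonotypes of each library. IGHV11-2 made up 2.99% and 4.79% in WT and 0.821% and 0.960% in Igll1-/- libraries. Replicates of a genotype differed in D use by more than sampling noise (chi-square of 599 in WT and 401 in Igll1-/- on 21 degrees of freedom), so all 4 stayed separate.

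The CDR3s with most reads are given first, under the D gene listed for each. For IGHD1-1 the 2 with most reads in each library were 6 V-J-CDR3 combinations of 5 sequences, shown because they carry the most reads. MRYGSSYWYFDV, ARHYYGSSYYFDY and ARSTVVAMDY hold stretches counted further on. MRYGGYWYFDV and AGDNYGYWYFDV hold no stretch counted further on for a frame of IGHD1-1.

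IGHV11-2 with IGHJ1, first in both WT libraries: MRYGSSYWYFDV
IGHV11-2 with IGHJ1, second in WT replicate 2: MRYGGYWYFDV
IGHV5-17 with IGHJ2, second in WT replicate 1 and Igll1-/- replicate 1, and IGHV5-12-1 with IGHJ2, second in Igll1-/- replicate 2: ARHYYGSSYYFDY
IGHV12-3 with IGHJ1, first in Igll1-/- replicate 1: AGDNYGYWYFDV
IGHV9-3 with IGHJ4, first in Igll1-/- replicate 2: ARSTVVAMDY

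The clonotype MRYGSSYWYFDV had 8778 reads in WT replicate 1, which was 15.0% of all IGHD1-1 reads there, and 2965 reads or 5.48% in WT replicate 2. AGDNYGYWYFDV had 22183 reads in Igll1-/- replicate 1, 32.4% of its IGHD1-1 reads. ARSTVVAMDY had 2998 reads in Igll1-/- replicate 2, or 3.57%. The leading IGHD1-1 clonotype was thus an IGHV11-2 joint in both WT libraries and a joint of another V gene in each Igll1-/- library.

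For IGHD4-1 the same rule gave 7 sequences, which are shown for comparison with those above. Only ARSNWDWYFDV, ANWDFDY and ATGTWFAY hold a stretch counted further on for a frame of IGHD4-1. With the same V and J gene, AGDRSGYWYFDV was also listed with IGHD2-2 and IGHD3-1, for 0.609% and 0.152% of its reads. AGDNWGYWYFDV was also listed with IGHD3-1, for 0.371% of its reads.

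IGHV12-3 with IGHJ1, first in WT replicate 1: AGDNWGYWYFDV
IGHV12-3 with IGHJ1, second in both WT libraries: AGDRSGYWYFDV
IGHV5-9-1 or IGHV5S21 with IGHJ2, first in WT replicate 2: TRPSLGRGFDY
IGHV9-4 with IGHJ1, first in Igll1-/- replicate 1: ARSNWDWYFDV
IGHV1-82 with IGHJ2, second in Igll1-/- replicate 1: ANWDFDY
IGHV1-19 with IGHJ3, first in Igll1-/- replicate 2: ATGTWFAY
IGHV1-5 with IGHJ3, second in Igll1-/- replicate 2: TWDWFAY

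These clonotypes held between 2.71% and 7.37% of the IGHD4-1 reads of their library, so no single IGHD4-1 joint took as large a share as AGDNYGYWYFDV did of IGHD1-1. Among productive clonotypes, meaning those read in frame and without a stop codon, 456 V-J-CDR3 combinations on IGHD1-1 and 258 on IGHD4-1 were found in all 4 libraries. AGDNYGYWYFDV led the shared IGHD1-1 combinations, with 307 and 236 reads in WT and 22381 and 88 in Igll1-/- libraries. MRYGSSYWYFDV followed with 8858 and 2986 reads in WT against 58 and 135 in Igll1-/- libraries. ARHYYGSSYYFDY with IGHV5-17 had 3063, 777, 5747 and 123 reads over WT replicates 1 and 2 and Igll1-/- replicates 1 and 2, with no order by genotype.

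Next in reads came a further pair of IGHV11-2 joints. MRYGSSWYFDV had 2232 and 505 reads in WT against 20 and 13 in Igll1-/- libraries, and MRYGGYWYFDV had 271 and 1789 against 5 and 5. The 3 IGHV11-2 joints named here therefore had more reads in both WT libraries. On IGHD4-1, ATGTWFAY led with 277 and 60 reads in WT and 489 and 1743 in Igll1-/- libraries. ANWDFDY had 5 and 167 in WT and 675 and 625 in Igll1-/- libraries. Both had more reads in each Igll1-/- library than in either WT library. AGDNWGYWYFDV went the other way, with 1224 and 110 reads in WT and 4 and 5 in Igll1-/- libraries. ARSNWDWYFDV rested on Igll1-/- replicate 1, with 938 reads there and 10, 1 and 6 in the others. ATGTFAY, with IGHV1-69 or IGHV1-74, rested on WT replicate 2 with 666 reads against 3 to 7 elsewhere. These combinations were chosen by their summed reads. The share of all shared combinations that were apart by genotype was not counted, so no genotype result is read from the named ones. Reads carry no molecular barcode, so they mix the number of cells with amplification.

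IGHD1-1 was the most used D gene in every library. It made up 30.9% and 30.6% of the single-D clonotypes in WT replicates 1 and 2 and 32.2% and 33.3% in Igll1-/- replicates 1 and 2, and the widest 95% Wilson interval, in Igll1-/- replicate 1, ran from 31.7% to 32.7%. Both Igll1-/- libraries were above both WT libraries. IGHD4-1 made up 10.4% and 12.8% in WT and 10.03% and 9.11% in Igll1-/- libraries, so here both Igll1-/- libraries were below both WT libraries. Its rank among D genes was 3, 2, 2 and 4 over the same order. The other leading D genes were IGHD2-3, IGHD2-1 and IGHD2-4, with mean shares over 4 libraries of 10.9%, 8.36% and 8.01%. Both members together took 41.3% to 43.4% of each library, and the ratio of IGHD1-1 to IGHD4-1 clonotypes was 2.98 and 2.39 in WT and 3.21 and 3.65 in Igll1-/- libraries.

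Neither shift passed the test. IGHD1-1 averaged 32.7% ± 0.77 (SD, n = 2) in Igll1-/- against 30.7% ± 0.21 (SD, n = 2) in WT libraries, which is 0.09 on the log2 scale (standard error 0.05, edgeR's quasi-likelihood test, Benjamini-Hochberg adjusted p = 0.326). IGHD4-1 averaged 9.57% ± 0.65 (SD, n = 2) against 11.6% ± 1.69 (SD, n = 2), which is -0.28 on the log2 scale (standard error 0.14, edgeR adjusted p = 0.326). Of 22 D genes tested, 0 were called by edgeR, which is 0% of them, and 3 had an unadjusted p under 0.05. The genotypes did not overlap for 11 of the 23 D genes listed (47.8%), with Igll1-/- above for 3 (13%) and below for 8 (34.8%), so the separation seen for both members was shared by many D genes. With 2 libraries against 2 the exact permutation test cannot go below p = 0.333, the value it gave for either D gene.

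**Figure D1:**
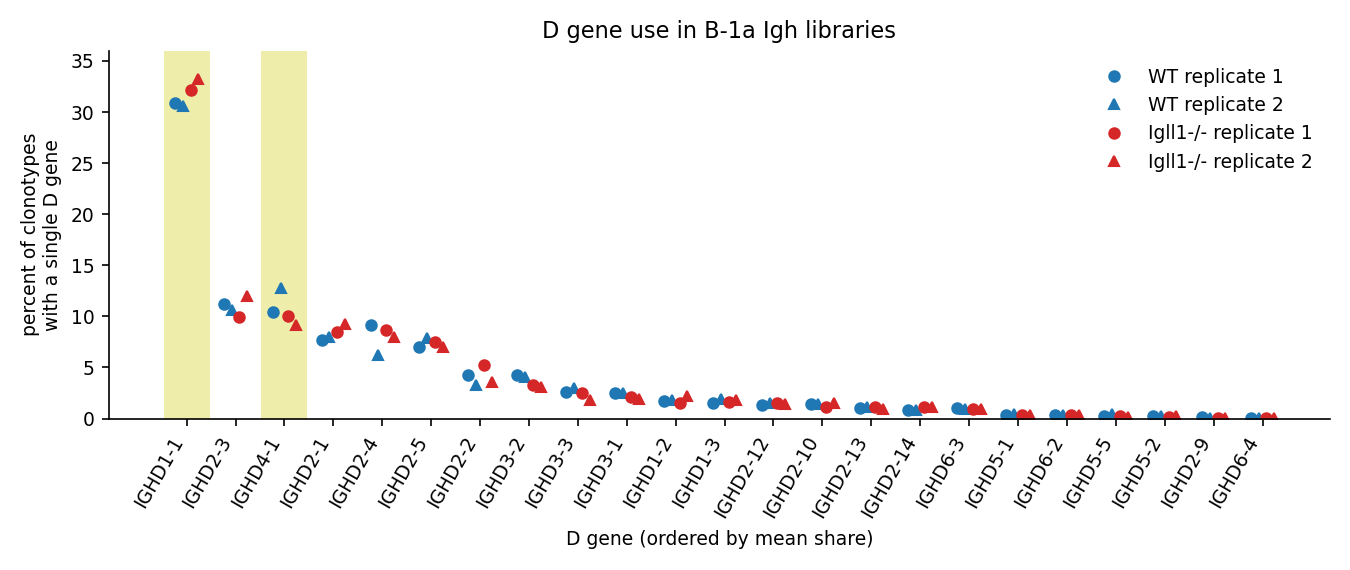
Percent of clonotypes with a single D gene (vertical axis) for each of the 23 D genes (horizontal axis, ordered by mean share), with 1 point per library, WT in blue and Igll1-/- in red. IGHD1-1 and IGHD4-1 are shaded. IGHD1-1 sits between 30.6% and 33.3% in all 4 libraries, and IGHD4-1 between 9.11% and 12.8%.

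Weighted by reads, IGHD1-1 took 28.6% and 26.9% of the single-D reads in WT and 41.2% and 31.9% in Igll1-/- libraries. Without the largest IGHD1-1 clonotype of each library these shares were 25.4% and 25.8% in WT and 32.1% and 31.1% in Igll1-/- libraries. The genotypes did not overlap with or without it. IGHD4-1 took 10.8% and 12.8% of reads in WT and 8.00% and 8.98% in Igll1-/- libraries, again without overlap. Other D genes were also apart by reads, so this separation was not particular to the members. IGHD2-1 took 13.1% and 16.3% in WT and 8.43% and 9.66% in Igll1-/- libraries. IGHD2-4 took 6.14% and 3.66% in WT and 8.00% and 6.96% in Igll1-/- libraries. IGHD2-3 overlapped, at 16.5% and 9.93% in WT and 9.97% and 20.5% in Igll1-/- libraries. The share of all D genes that were apart by reads was not counted, so no trait of the members is read from these values.

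The J gene joined to each D gene was compared next, within each library. IGHJ2 was the most frequent partner of both members, but IGHD4-1 was joined more to IGHJ2 and IGHJ3 and IGHD1-1 more to IGHJ1 and IGHJ4, in 4 of 4 libraries for each J gene. IGHJ4, the J segment farthest from the D cluster, made up 18.5% and 20.5% of IGHD1-1 clonotypes in WT and 17.1% and 22.2% in Igll1-/- libraries. Among IGHD4-1 clonotypes it made up 10.4% and 8.63% in WT and 8.52% and 8.17% in Igll1-/- libraries. The lowest IGHD1-1 value was above the highest IGHD4-1 value, and the difference was 10.6 percentage points ± 2.84 (SD over 4 libraries; exact sign-flip permutation test, two-sided p = 0.125, the smallest that 4 libraries allow). After adjustment over the 4 J genes p stayed at 0.125 for each of them.

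IGHJ2 made up 46.7%, 48.0%, 46.4% and 43.9% of IGHD1-1 clonotypes in WT replicates 1 and 2 and Igll1-/- replicates 1 and 2. Among IGHD4-1 clonotypes the IGHJ2 share was 55.5%, 54.9%, 53.1% and 51.2% in the same order. The share was higher with IGHD4-1 in each library, and for both D genes Igll1-/- replicate 2 was lowest. The difference, IGHD1-1 minus IGHD4-1, was -7.43 percentage points ± 0.96 (SD over 4 libraries; exact sign-flip permutation test, p = 0.125).

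IGHJ3 made up 18.9%, 12.0%, 19.4% and 20.2% of IGHD1-1 and 24.1%, 23.6%, 27.9% and 28.5% of IGHD4-1 clonotypes, a difference of -8.41 ± 2.62 percentage points. WT replicate 2 was lowest for both. IGHJ1, the J segment nearest to IGHD4-1, made up 15.9%, 19.5%, 17.2% and 13.7% of IGHD1-1 and 9.92%, 12.9%, 10.5% and 12.1% of IGHD4-1 clonotypes, a difference of 5.22 ± 2.44 percentage points that was smallest, at 1.59, in Igll1-/- replicate 2. Set against all other D genes, which gave IGHJ4 in 19.0% to 20.4% of clonotypes, IGHD4-1 was lower by 10.7 ± 1.48 percentage points in 4 of 4 libraries while IGHD1-1 was higher in 2 and lower in 2. For IGHJ3 the order was the other way. IGHD1-1 was lower than the other D genes by 7.61 ± 0.62 percentage points in 4 of 4 libraries, and IGHD4-1 was higher in 2 and lower in 2. For both of these the exact sign-flip permutation test gave p = 0.125, and 0.25 after adjustment over the J genes.

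**Figure D2:**
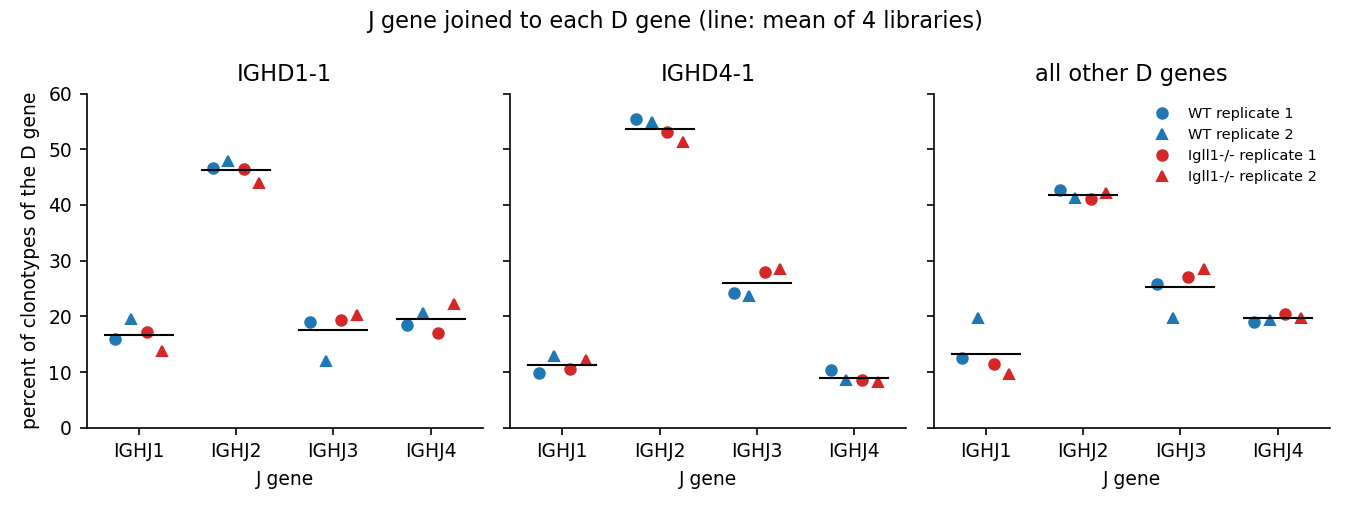
Percent of the clonotypes of IGHD1-1, of IGHD4-1 and of all other D genes (panels) that carried each J gene, with 1 point per library and a line at the mean of 4 libraries. IGHJ4 averages 19.6% with IGHD1-1 and 8.94% with IGHD4-1, and IGHJ2 averages 46.2% and 53.7%.

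Read the other way, IGHD4-1 took 3.81% to 6.03% of IGHJ4 clonotypes but 10.1% to 16.9% of IGHJ3 and 10.7% to 15.6% of IGHJ2 clonotypes. IGHD1-1 took 31.8% to 41.8% of IGHJ1 clonotypes and 20.6% to 26.1% of IGHJ3 clonotypes. By genotype, 0 of 84 D-J pairs were called by edgeR (0%, with 11 at an unadjusted p under 0.05). Of the 8 pairs of both members, IGHD4-1 with IGHJ2 had the smallest adjusted p. It made up 5.76% and 7.01% of clonotypes in WT and 5.32% and 4.66% in Igll1-/- libraries, without overlap (-0.36 on the log2 scale, standard error 0.17, edgeR adjusted p = 0.410). Not overlapping, with Igll1-/- below, was also true of 27.4% of all pairs tested.

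Among V families, IGHV2 (Q52) had the largest ratio between both D genes. IGHV2 genes lie in the D-proximal part of the V cluster. They made up 1.62% and 2.24% of IGHD1-1 clonotypes in WT and 2.83% and 1.99% in Igll1-/- libraries, but 0.407% and 0.517% of IGHD4-1 clonotypes in WT and 0.296% and 0.849% in Igll1-/- libraries. All 4 IGHD1-1 values lay above all 4 IGHD4-1 values, with a ratio of the means of 4.19 and ratios within a library from 2.35 to 9.55. The other D genes lay between, at 0.866% to 1.39%. Against them IGHD1-1 was higher by 1.10 ± 0.36 percentage points and IGHD4-1 lower by 0.56 ± 0.37 (SD over 4 libraries), each in 4 of 4 libraries (exact sign-flip permutation test, p = 0.125, and 0.325 after adjustment over the V families). Within the IGHV2 family IGHD1-1 was used by 46.9%, 55.2%, 52.2% and 47.4% of clonotypes and IGHD4-1 by 3.97%, 5.32%, 1.70% and 5.53%.

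Shares of single V genes are given among the clonotypes of a D gene that list a single V gene. At the level of single V genes, 78 of the 124 V genes listed with either D gene were tested, with the library as a block. Of these 22 had an unadjusted p under 0.05 (28.2%) and 9 were called (11.5%), 6 of them higher with IGHD1-1 (7.69%) and 3 lower (3.85%). A gene could be tested through its IGHD1-1 counts alone. The IGHV2 genes entered in this way, since none reached 10 IGHD4-1 clonotypes in a library. Neither a count of them nor their p-values are therefore support. The family shares above, which use no such filter, are the measure over all members. Of the 11 IGHV2 genes listed, the 5 that could be tested are given with their counts. IGHV2-3 was found in 79, 64, 115 and 58 IGHD1-1 clonotypes, or 0.570%, 0.566%, 1.47% and 0.398%, over WT replicates 1 and 2 and Igll1-/- replicates 1 and 2. Among IGHD4-1 clonotypes it was found in 6, 2, 0 and 5, or 0.134%, 0.0441%, 0% and 0.129%, where 3 clonotypes of 2344, the floor of Igll1-/- replicate 1, would be 0.128%. Each IGHD1-1 share was above each IGHD4-1 share, with a log2 difference of 2.91 (standard error 0.43, edgeR adjusted p = 0.00087).

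IGHV2-9-2 was found in 12, 15, 22 and 32 IGHD1-1 and in 1, 1, 0 and 1 IGHD4-1 clonotypes (log2 difference 2.96, standard error 0.61, edgeR adjusted p = 0.0060). IGHV2-6-7 was found in 56, 43, 15 and 51 IGHD1-1 and 5, 0, 0 and 3 IGHD4-1 clonotypes (2.71, standard error 0.47, edgeR adjusted p = 0.0021). IGHV2-2 was found in 29, 24, 40 and 49 against 2, 5, 3 and 5 (1.54, standard error 0.32, edgeR adjusted p = 0.0060). IGHV2-6 was found in 7, 22, 4 and 17 against 0, 7, 3 and 2 and did not pass (0.48, edgeR adjusted p = 0.646). Fitted with no filter, the first 4 also passed and were higher with IGHD1-1.

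The other called V genes differed by less on the log2 scale than the 4 called IGHV2 genes, which entered through their IGHD1-1 counts. IGHV1-81 averaged 2.66% ± 0.82 of IGHD1-1 and 1.81% ± 0.37 of IGHD4-1 clonotypes (SD over 4 libraries; log2 difference 0.55, edgeR adjusted p = 0.0255). IGHV9-2 averaged 0.699% ± 0.235 and 1.19% ± 0.43 (-0.72, edgeR adjusted p = 0.0255), IGHV1-22 1.60% ± 0.24 and 2.41% ± 0.21 (-0.58, edgeR adjusted p = 0.0255) and IGHV1-15 2.90% ± 0.69 and 4.197% ± 1.45 (-0.50, edgeR adjusted p = 0.0255). Each of the latter 3 was lower with IGHD1-1 in 4 of 4 libraries, and with DESeq2 none of the 3 passed (adjusted p = 0.0575, 0.0538 and 0.109). Without Igll1-/- replicate 1 only IGHV2-3 of the 9 stayed called (log2 difference 2.33), and without WT replicate 2 the calls numbered 14. The interaction of D gene and genotype was called for 0 of 78 V genes (0% by edgeR, with 2 or 2.56% at an unadjusted p under 0.05).

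**Figure D3:**
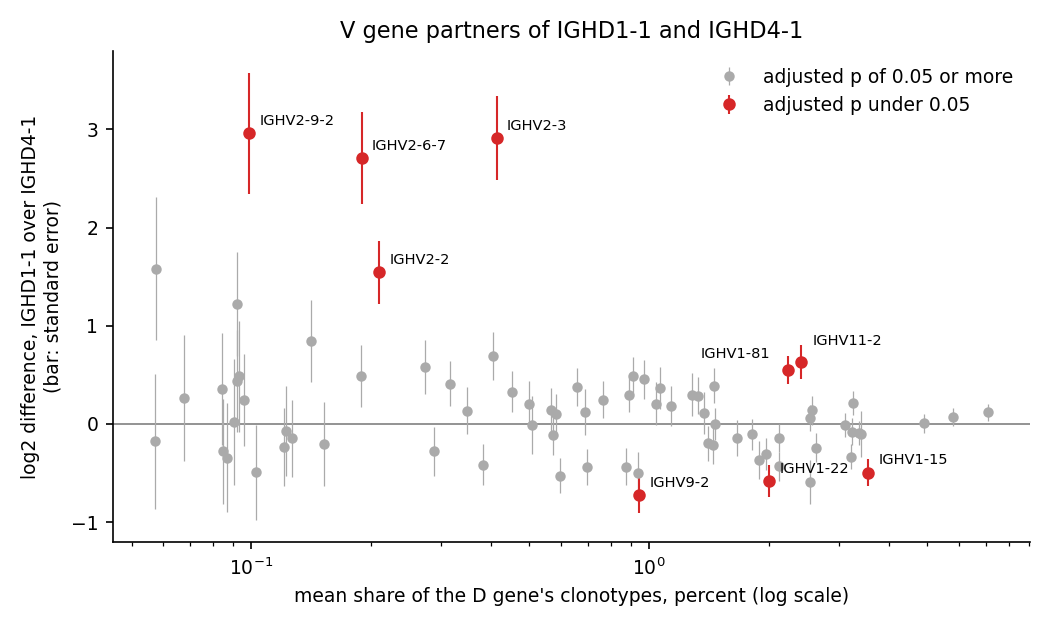
Log2 difference of each V gene's share, IGHD1-1 over IGHD4-1 (vertical axis, bars are standard errors of the edgeR fit), for the 78 V genes tested. The horizontal axis (log scale) is its mean share, in percent, of the clonotypes of both D genes with a single V gene. The 9 called genes are in red. IGHV2-9-2, IGHV2-3, IGHV2-6-7 and IGHV2-2, which entered through their IGHD1-1 counts alone, stand at 1.54 to 2.96. The other 5 called genes lie between -0.72 and 0.63.

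The phosphatidylcholine-associated V genes behaved differently from each other. Their shares with a D gene are again among clonotypes with a single V gene, so they can lie above the family shares. IGHV11-2 made up 3.95% and 5.05% of IGHD1-1 clonotypes in WT and 1.49% and 1.42% in Igll1-/- libraries, against 2.12% and 2.85% of IGHD4-1 clonotypes in WT and 0.853% and 1.47% in Igll1-/- libraries. It was higher with IGHD1-1 in 3 of 4 libraries (log2 difference 0.63, standard error 0.17, edgeR adjusted p = 0.0255), and with near-identical clonotypes merged the difference was 0.13 (edgeR adjusted p = 0.609). IGHV12-3 made up 2.38%, 3.73%, 4.51% and 2.75% of IGHD1-1 and 4.42%, 3.97%, 1.96% and 3.50% of IGHD4-1 clonotypes, with no common direction (log2 difference -0.10, edgeR adjusted p = 0.778). With the other D genes IGHV12-3 made up 7.28% to 8.39%, above either member in each library. IGHD1-1 was used by 12.0% to 24.6% and IGHD4-1 by 3.20% to 7.93% of IGHV12-3 clonotypes. IGHV5-2 averaged 0.362% ± 0.159 and 0.334% ± 0.268 (SD over 4 libraries; log2 difference 0.14, edgeR adjusted p = 0.812).

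Among whole V families, IGHV1 took 54.1% to 60.1% of IGHD1-1 and 57.5% to 60.5% of IGHD4-1 clonotypes, and IGHV5 took 15.5% to 24.3% and 15.3% to 21.6%. Besides IGHV2, IGHV8 and IGHV11 were higher with IGHD1-1 in 4 of 4 libraries, with ratios of the means of 1.33 and 1.68, and IGHV6 and IGHV9 were lower in 4 of 4, with ratios of 0.798 and 0.746. The remaining families, IGHV1, IGHV3, IGHV4, IGHV5, IGHV7, IGHV10, IGHV12 and IGHV14, had no common direction and ratios of 0.776 to 1.54.

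By genotype, the pairs of IGHD1-1 with the smallest p-values were those with IGHV11 and IGHV5. IGHD1-1 with IGHV11 made up 1.11% and 1.27% of clonotypes in WT and 0.462% and 0.567% in Igll1-/- libraries. IGHD1-1 with IGHV5 made up 5.33% and 4.74% in WT and 7.13% and 8.10% in Igll1-/- libraries. Neither pair overlapped between genotypes, where 29.5% of all 183 D-V family pairs lay below and 15.3% above in Igll1-/- libraries. Their log2 fold changes were -1.20 (standard error 0.24) and 0.60 (standard error 0.12), both with an edgeR adjusted p = 0.0802. The test called 2 pairs (1.09%), IGHD2-1 and IGHD2-5 with IGHV11, named here after their values were seen, and no pair of either member. Counting only clonotypes of at least 2 reads, both IGHD1-1 pairs passed (edgeR adjusted p = 0.0058 for IGHV11 and 0.011 for IGHV5). With near-identical clonotypes merged neither passed, at -0.54 (edgeR adjusted p = 0.333) for IGHV11 and 0.44 (adjusted p = 0.247) for IGHV5, and by reads they were at -3.80 (edgeR adjusted p = 0.0225) and 1.11 (adjusted p = 0.337). The call of either therefore depended on the processing.

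As a share of all clonotypes, IGHD4-1 with IGHV5 had a log2 fold change of 0.02 between genotypes (edgeR adjusted p = 0.989). Within the clonotypes of each member, however, IGHV5 was higher in both Igll1-/- libraries. It made up 17.8%, 15.3%, 18.7% and 21.6% of IGHD4-1 clonotypes over WT replicates 1 and 2 and Igll1-/- replicates 1 and 2. In the same order it made up 17.3%, 15.5%, 22.1% and 24.3% of IGHD1-1 clonotypes. With the other D genes it was 17.3%, 14.2%, 19.1% and 20.8%, so a higher IGHV5 share was not particular to IGHD1-1. The difference between both members was not tested. IGHD4-1 with IGHV11 made up 0.202% and 0.292% in WT and 0.0792% and 0.131% in Igll1-/- libraries, a log2 fold change of -1.21 close to that of IGHD1-1 (standard error 0.42, edgeR adjusted p = 0.270). Within IGHV11, IGHD1-1 was used by 33.3% and 24.5% of WT and 42.4% and 41.0% of Igll1-/- clonotypes.

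The tables mark each clonotype as productive or unproductive. All listed CDR3s were in frame, and 72.8% to 87.8% of the unproductive clonotypes of a library held a stop codon in CDR3, so out-of-frame joints are not analysed here. IGHD4-1 joints were productive more often than IGHD1-1 joints. The productive share was 95.9% and 98.4% for IGHD4-1 in WT and 97.2% and 96.3% in Igll1-/- libraries, and 90.7% and 91.8% for IGHD1-1 in WT and 92.6% and 93.5% in Igll1-/- libraries. The difference, IGHD1-1 minus IGHD4-1, was -4.77 percentage points ± 1.56 with the same sign in 4 of 4 libraries (exact sign-flip permutation test, p = 0.125). The other D genes together were at 91.8% to 93.6%, near IGHD1-1. Among 22 single D genes, IGHD4-1 ranked 6th and IGHD1-1 17th by mean productive share, and IGHD5-2 was highest at 98.1%. A high productive share was therefore not particular to IGHD4-1. By genotype IGHD1-1 was higher in both Igll1-/- libraries, as were 40.9% of the D genes, and IGHD4-1 overlapped (exact permutation test, p = 0.333 for IGHD1-1).

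A stop codon in CDR3 was found in 7.12% and 7.31% of IGHD1-1 clonotypes in WT and 6.47% and 5.59% in Igll1-/- libraries. For IGHD4-1 it was 2.09% and 0.935% in WT and 2.01% and 2.81% in Igll1-/- libraries. Read as D use, IGHD1-1 made up 31.4% ± 1.34 of productive and 35.5% ± 1.55 of unproductive clonotypes, and IGHD4-1 11.0% ± 1.79 and 4.52% ± 1.20 (SD over 4 libraries). Each difference had 1 sign in all 4 libraries (exact sign-flip permutation test, p = 0.125). Unproductive IGHD4-1 clonotypes numbered 223, 98, 85 and 185. Among unproductive clonotypes alone IGHD4-1 averaged 4.11% in WT and 4.93% in Igll1-/- libraries, which is the opposite direction to that over all clonotypes. The genotypes overlapped there, at 5.36% and 2.85% in WT and 4.44% and 5.42% in Igll1-/- libraries.

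CDR3s with IGHD1-1 were longer than those with IGHD4-1 in every library. Productive IGHD1-1 CDR3s averaged 11.91 and 11.86 amino acids in WT and 11.69 and 11.52 in Igll1-/- libraries. IGHD4-1 CDR3s averaged 8.997 and 9.07 in WT and 8.61 and 8.48 in Igll1-/- libraries. The distance was 2.96 amino acids ± 0.14 (SD over 4 libraries; exact sign-flip permutation test, p = 0.125). Each IGHD1-1 mean was above each IGHD4-1 mean. Among the 22 D genes with enough productive clonotypes, IGHD1-1 ranked second and IGHD4-1 21st by mean length. The median was 12 with IGHD1-1 in each library and 8 or 9 with IGHD4-1. CDR3s of 8 or fewer residues were 10.5% to 15.2% of IGHD1-1 and 40.6% to 54.8% of IGHD4-1 clonotypes, and those of 14 or more were 22.7% to 26.3% and 0.948% to 2.60%.

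For both D genes the mean CDR3 length over clonotypes was lower in Igll1-/- libraries. The difference, Igll1-/- minus WT, was -0.28 amino acids for IGHD1-1 and -0.49 for IGHD4-1, and the genotypes did not overlap for either (exact permutation test, p = 0.333, the smallest possible). The same held for 14 of the 22 D genes (63.6%), and 0 D genes lay above without overlap (0%). CDR3s of 8 or fewer residues made up 43.9% and 40.6% of IGHD4-1 clonotypes in WT and 49.2% and 54.8% in Igll1-/- libraries. The other D genes together were also higher without overlap, at 17.8% and 20.5% in WT and 22.3% and 26.3% in Igll1-/- libraries. For IGHD1-1 this share overlapped, at 10.5% and 11.4% in WT and 11.4% and 15.2% in Igll1-/- libraries. Counted by reads, IGHD4-1 CDR3s averaged 9.39 and 9.18 in WT and 8.43 and 8.14 in Igll1-/- libraries, a difference of -1.003. The other D genes together were also lower by reads, at 10.99 and 10.76 in WT and 10.28 and 10.26 in Igll1-/- libraries. The IGHD1-1 means by reads were 11.82 and 11.82 in WT and 11.83 and 11.25 in Igll1-/- libraries, which overlapped, with Igll1-/- replicate 1 above both WT libraries.

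The J gene moved the length as well. With IGHJ1 and IGHJ4, IGHD1-1 CDR3s averaged 12.9 amino acids over the 4 libraries for either, and with IGHJ2 and IGHJ3 11.1 and 11.2. With IGHJ1 and IGHJ4, IGHD4-1 CDR3s averaged 10.5 and 10.3, and with IGHJ2 and IGHJ3 8.33 and 8.48. The IGHD1-1 mean was higher with each of the 4 J genes, so the distance between both D genes was present within each J gene. By genotype the difference for IGHD4-1 was -0.63 with IGHJ1, -0.53 with IGHJ2, -0.41 with IGHJ3 and -0.05 with IGHJ4, without overlap for the first 3. For IGHD1-1 it was -0.17 with IGHJ1 and -0.12 with IGHJ2, both with overlap, and -0.55 with IGHJ3 and -0.26 with IGHJ4, both without. The other D genes were not split by J gene. Over all J genes 63.6% of the D genes were lower without overlap, so no trait of the members is read from these values.

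**Figure D4:**
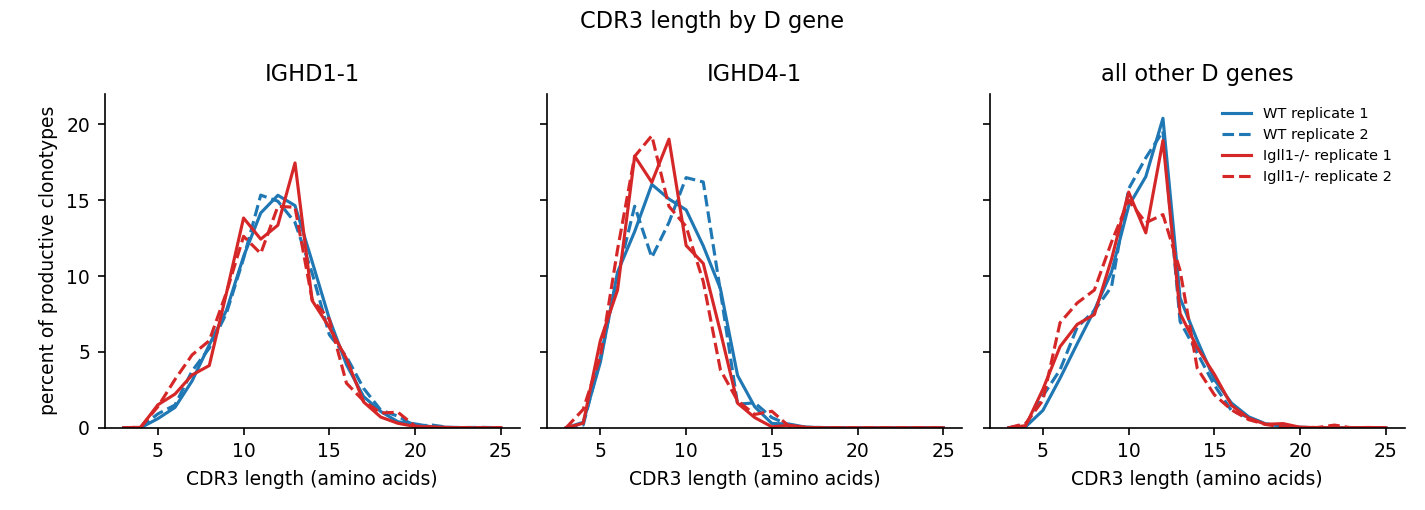
Percent of productive clonotypes (vertical axis) at each CDR3 length in amino acids (horizontal axis) for IGHD1-1, IGHD4-1 and all other D genes, with 1 line per library. The IGHD4-1 curves lie to the left of the IGHD1-1 curves, with means of 8.48 to 9.07 against 11.52 to 11.91.

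The residues of CDR3 differed between both D genes. Over productive clonotypes the most frequent stretches of 4 residues with IGHD1-1 were YGSS, in 36.1% ± 1.41 (SD over 4 libraries) of CDR3s, YYGS in 30.8% ± 1.06 and GSSY in 26.6% ± 1.99. Next came YFDY in 19.4% and AMDY in 16.9%, which are read from J genes. YGSS was in 0.0165% to 0.0310% of the CDR3s with any other D gene, whereas YFDY was in 16.7% to 18.9% of them. The D gene was assigned from the same reads that give these residues. A low share of a D-derived stretch with other D genes, here and below, therefore largely follows from the assignment and is no separate result. ARHYYGSSYYFDY, printed above, holds all of the first 3. With IGHD4-1 the most frequent were YFDY in 17.2%, WFAY in 9.45%, YFDV in 9.27% and WYFD in 8.81%, all also common with the other D genes, and then ANWD in 7.68% ± 1.28, which was in 0.0393% to 0.0985% of CDR3s with any other D gene.

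Sets of shorter stretches that mark a frame, chosen after the values were seen, were then counted. They do not cover every frame of IGHD1-1, and a CDR3 that held none of them was given no frame. The tyrosine and serine frame of IGHD1-1 (YGS, GSS or SSY) was found in 50.1% and 51.3% of IGHD1-1 CDR3s in WT and 46.7% and 46.9% in Igll1-/- libraries. The threonine and valine frame (TTV or TVV), seen in ARSTVVAMDY, was found in 15.6% and 14.9% in WT and 16.4% and 18.8% in Igll1-/- libraries. Over all clonotypes the first was lower and the second higher in both Igll1-/- libraries. By reads the second overlapped, at 9.54% and 13.3% in WT and 10.1% and 22.6% in Igll1-/- libraries. With IGHJ1 the first overlapped, at 64.2% and 61.4% in WT and 47.1% and 68.9% in Igll1-/- libraries. In CDR3s of all other D genes these sets were found in 0.638% to 1.14% and 0.129% to 0.222%.

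For IGHD4-1 stretches of 3 kinds were counted. NWD, seen in ANWDFDY and ARSNWDWYFDV, was found in 15.9% and 16.6% of IGHD4-1 CDR3s in WT and 20.1% and 18.8% in Igll1-/- libraries. TGT or LTG, seen in ATGTWFAY, was found in 15.4% and 18.3% in WT and 15.8% and 12.4% in Igll1-/- libraries, which overlapped. RLG or ALG was found in 6.12% and 7.01% in WT and 7.89% and 10.8% in Igll1-/- libraries. NWD with IGHJ1 stood at 16.8% and 15.3% in WT and 40.0% and 40.8% in Igll1-/- libraries, and with near-identical clonotypes merged at 21.2% and 16.8% against 32.8% and 39.2%. With IGHJ2 it was 19.0% and 19.1% in WT and 22.9% and 21.5% in Igll1-/- libraries. With IGHJ3 the order was the other way, at 9.53% and 11.3% in WT and 6.67% and 6.40% in Igll1-/- libraries, and with IGHJ4 the genotypes overlapped, at 13.6% and 17.1% against 21.5% and 13.5%. In Igll1-/- replicate 1, 31.5% of the NWD clonotypes with IGHJ1 carried IGHV9-4, the V gene of ARSNWDWYFDV, against 1.33% to 5.95% in the other libraries. TGT or LTG with IGHJ1 stood at 10.6% and 15.1% in WT and 7.10% and 7.40% in Igll1-/- libraries. With IGHJ2 it stood at 14.3% and 17.0% against 11.2% and 7.67%, and with IGHJ3 and IGHJ4 it overlapped. The share of all frame and J gene combinations that were apart was not counted, so no trait of NWD is read from these values.

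**Figure D5:**
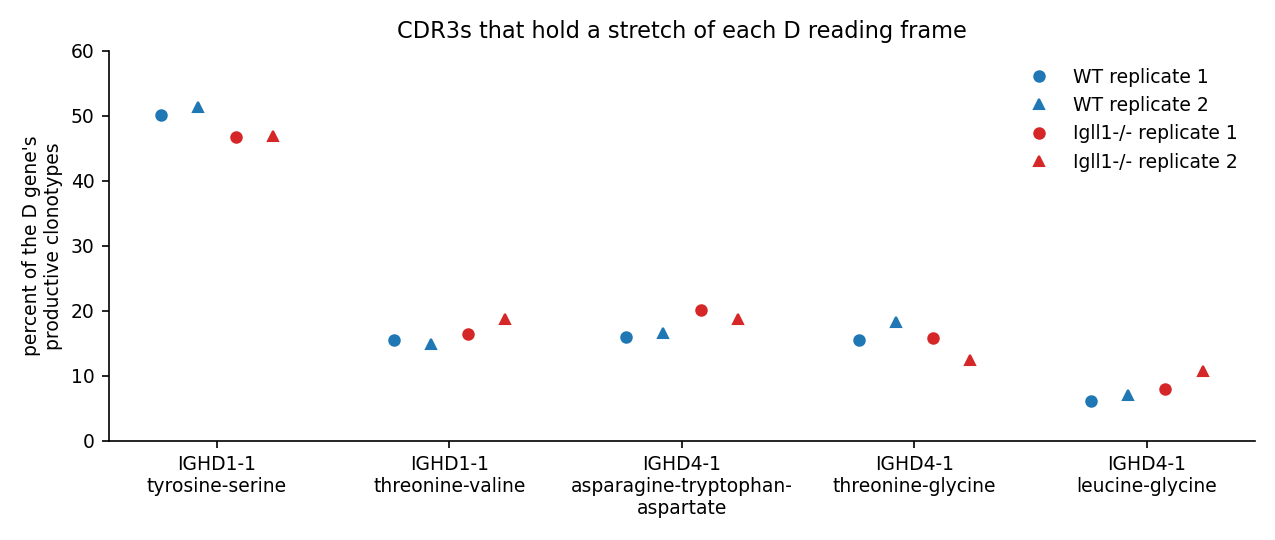
Percent of the productive clonotypes of each D gene (vertical axis) whose CDR3 holds a stretch of the named reading frame (horizontal axis), with 1 point per library, WT in blue and Igll1-/- in red. The tyrosine-serine frame of IGHD1-1 lies at 46.7% to 51.3%, and the asparagine-tryptophan-aspartate frame of IGHD4-1 at 15.9% to 20.1%.

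By residue content, tyrosine made up 23.0% to 24.03% of CDR3 residues with IGHD1-1 and 15.1% to 16.1% with IGHD4-1, and serine 9.98% to 10.5% and 2.30% to 2.79%. Tryptophan was the reverse, at 2.29% to 2.65% with IGHD1-1 and 6.34% to 7.47% with IGHD4-1. The other D genes were close to IGHD1-1 in tyrosine, at 22.1% to 23.5%, and between both members in serine, at 4.23% to 4.74%. Glycine was 9.16% and 8.95% in WT and 8.63% and 8.03% in Igll1-/- libraries with IGHD1-1, and 10.1% and 10.3% against 8.92% and 8.90% with IGHD4-1. It was lower in both Igll1-/- libraries for either D gene, and also for the other D genes, at 8.77% and 8.92% against 8.07% and 7.50%.

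The share of productive clonotypes found in all 4 libraries was 5.48%, 4.56%, 9.38% and 6.43% for IGHD4-1 and 3.61%, 4.04%, 5.83% and 3.23% for IGHD1-1, over WT replicates 1 and 2 and Igll1-/- replicates 1 and 2. It was higher for IGHD4-1 in 4 of 4 libraries, by 2.28 percentage points ± 1.38 (exact sign-flip permutation test, p = 0.125). The share found in 2 or more libraries was 34.8%, 21.6%, 40.6% and 33.6% for IGHD4-1 and 31.3%, 22.0%, 31.3% and 22.2% for IGHD1-1, higher for IGHD4-1 in 3 of 4 libraries and lower in WT replicate 2. Clonotypes of 1 read made up 66.6% to 70.2% of IGHD4-1 and 68.7% to 74.4% of IGHD1-1 clonotypes, lower for IGHD4-1 in each library. What part length or read number had in the sharing was not tested.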

How the data were processed

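Rearranged Igh DNA of sorted peritoneal cavity B-1a cells was measured in 4 libraries, 2 WT and 2 Igll1-/-. The 6 Igk libraries of the series list no D gene and were not used. Per the methods, the authors annotated the reads by IMGT/HighV-QUEST and IMGT/StatClonotype. The tables they deposited give 1 row per clonotype with its count of reads. The version and build are not given in the sources used here. The D gene is the one deposited, and for 1.93% to 2.20% of single-D rows the allele column listed a second D gene.

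Each row was counted once. D genes, D-J pairs and D-V family pairs with at least 10 rows in at least 2 libraries were compared by genotype with edgeR 4.0.16 (quasi-likelihood, R 4.3.3). Library size was all single-D rows for D genes. For the pairs it was the single-D rows that also had a single J gene or a single V family. V partners were fitted with library as a block, and library size was the rows of each D gene with a single V gene. p-values were adjusted by Benjamini-Hochberg over all features, at 0.05. J share, productive share and CDR3 length (Python 3.11.15, scipy 1.17.1) were compared by exact sign-flip or permutation tests over libraries. The fits were tested on simulated data. Intervals and floors (3 rows) cover counting error only, and 3 rows of a library are 0.00552% to 0.00990% of its single-D rows.

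Named in the text are both members, the 3 other D genes with the highest mean share, all J genes and V families, up to 5 called V partners in each direction that had 1 sign in all 4 libraries, IGHV11-2, IGHV12-3 and IGHV5-2, the member pair with the smallest adjusted p, and the CDR3s with most reads. Members and lists were chosen with earlier results of these data known. Alternatives were reads, at least 2 or 10 reads, merging of near-identical clonotypes (same V, D and J gene and length, 1 mismatch, 10 times the reads), DESeq2 1.42.0, TMM, no filter, a replicate block, productive or unproductive rows, other denominators, each library left out, and, chosen after seeing the data, rows differing only in allele collapsed.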

Additional observations from a re-analysis of the deposited data

How the results depend on the processing

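The 0 D genes called by genotype stayed 0 under every alternative run, and IGHD1-1 kept its direction in all of them. IGHD4-1 was reversed only among unproductive clonotypes, at 0.26 on the log2 scale (edgeR adjusted p = 0.760). The count of 0 D-J pairs became 1 with DESeq2, 2 by reads and 0 to 4 with a library left out, and none of these were pairs of IGHD1-1 or IGHD4-1. The count of 2 D-V family pairs became 4 with DESeq2, 7 with at least 10 reads, 6 with at least 2 reads, 0 with near-identical clonotypes merged, 0 with alleles collapsed, 9 without a filter, 4 by reads, 5 with the replicate block and 0 to 6 with a library left out (0 without WT replicate 2, Igll1-/- replicate 1 or Igll1-/- replicate 2, and 6 without WT replicate 1). Whether same-numbered libraries were handled together is not stated. Their deviations correlated at r = -0.05 across 22 D genes, which cannot show whether they shared a step. With the replicate block IGHD1-1 with IGHV11 passed at -1.21 on the log2 scale (edgeR adjusted p = 0.0047), while 0 D genes and 0 D-J pairs passed. IGHD4-1 with IGHV1 (log2 fold change -0.47) and IGHV12 (-2.62), named after their values were seen, passed only with at least 10 reads (edgeR adjusted p = 0.00055 and 0.047). The count of 9 V partners became 2 with at least 10 reads, when 18 V genes could be tested, 5 by reads, 0 of 36 among unproductive clonotypes and 1 to 14 with a library left out. IGHV12-3 turned positive with at least 10 reads (0.31, edgeR adjusted p = 0.792) and without WT replicate 1 (0.19, edgeR adjusted p = 0.680), and with a library left out it ranged from -0.44 to 0.19. Differences in J share, productive share and CDR3 length, IGHD1-1 against IGHD4-1, kept their direction in all 44, 9 and 10 alternatives run. By reads they moved to 13.5 percentage points for IGHJ1, -10.2 for IGHJ2 and -15.0 for IGHJ3, and to -3.00 for the productive share. With at least 2 reads IGHJ2 was at -9.32, with at least 10 reads IGHJ3 at -13.0 and IGHJ4 at 13.6, and among unproductive clonotypes IGHJ1 at 2.73, IGHJ2 at -1.88 and IGHJ3 at -11.5. The genotype difference in CDR3 length moved to -1.003 amino acids by reads and -0.71 with at least 10 reads for IGHD4-1, and to -0.41 and -0.46 with at least 2 and 10 reads for IGHD1-1. No row had an unknown functionality, so leaving such rows out changed nothing and has no value of its own. Causes of these changes were not tested. With 2 libraries per genotype no exact test could reach 0.05.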
